A study of Mus musculus with 6 samples.

Results

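Ripk2, Ccnk, Setd3, Lars2, Sfi1, Tmem267, Sp140 and Rcc1l are 8 mouse genes that drew called open-chromatin peaks in nearly every islet library of the series, or that held a row of peaks inside the gene in a single library. They were chosen from the peak lists themselves: a member has a peak within its body plus 1000 bp in 5 or 6 of the 6 libraries, or 4 or more peaks lying wholly inside the gene in 1 library. They are 8 of 21887 protein-coding genes, and 168 genes in all (0.768%) met 1 of these conditions, so the 8 are a selection from a longer list. Of the 8, 4 had a peak in all 6 libraries (Ripk2, Ccnk, Setd3 and Tmem267), 3 in 5 libraries (Lars2, Sfi1 and Sp140), and Rcc1l in 3. The condition on internal peaks was met by 4 genes, namely Sfi1, Tmem267, Sp140 and Rcc1l. Ccnk and Setd3 overlap at their ends and share a single region, so the 8 genes stand for 7 loci, with 98 peaks out of the 18932 in the series.

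Open chromatin was mapped by ATAC-seq, which uses Tn5 transposase to cut and tag DNA that is not packed away. The tissue was 50 islets of the pancreas per library, from mice aged 16 weeks, and the 3 groups hold 2 libraries each. Islets of wildtype mice were given the GFP adenovirus (control-GFP, labelled Con+Ad-GFP), islets of βRicKO mice were given the same virus (knockout-GFP, βRicKO+Ad-GFP), and βRicKO islets were given the Acsl4 adenovirus (knockout-Acsl4, βRicKO+Ad-Acsl4), each for 48 h ex vivo. βRicKO mice lack Rictor, without which no mTORC2 kinase forms, in their beta cells. The labels do not name the Cre driver, islets hold several cell types that were not sorted apart, and every group carried a virus. Whether replicate libraries stem from different mice is not stated, so their spread may be technical.

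A promoter that is in use loses nucleosomes over its start site, and ATAC-seq reads pile up there in a block whose called width grows with the depth and quality of a library. Reads can also pile up where the reference holds fewer copies of a sequence than the animal has, as at satellites and recent gene duplications, because reads from every copy land on the copy that is in the reference. Such collapsed repeats are known from mouse chromatin data to give high scores in libraries of any kind. Pile-ups can further come from DNA of another source, such as a plasmid or a virus that carries a gene's coding sequence. The peak lists give position, width and score, and from these alone the copy number of a sequence cannot be measured.

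The libraries differed widely. The lists held from 525 peaks (knockout-Acsl4 1) to 5874 (knockout-Acsl4 2), and the control-GFP and knockout-GFP libraries ranged from 1628 to 4442. The score deposited with each peak was read as a −log10 q-value, and it is ranked here only within its own list: a score percentile of 90 means that 90% of the peaks in that library scored at or below it. Of 35 marker genes for beta, other endocrine, acinar, ductal, endothelial, stromal and immune cells, 6 (17.1%) had a peak within the gene body plus 1000 bp in any library, against 34.1% of all protein-coding genes. They included 3 of 9 beta cell markers (33.3%), the transcription factors Nkx6-1 and Mafa and the zinc transporter Slc30a8, while the insulin genes Ins1 and Ins2 had none. The other 3 were the endocrine marker Chga, the endothelial Pecam1 and the immune Itgam, each in knockout-Acsl4 2 alone. None of the 6 acinar and ductal markers had one. Absence from such short lists does not show that a cell type was absent.

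The sequences around the annotated start sites show what lies under the peaks, or does not. RefSeq promoter sequences (GRCm38.p6, 250 bases before to 50 after a start site) were found for 6 of the 8 genes, all but Ripk2 and Sfi1. Those of Ccnk (chr12:108179488-108179787, plus strand) and Setd3 (chr12:108179235-108179534, minus strand) face away from each other, and capitals mark bases under a peak in at least 4 libraries.
Ccnk: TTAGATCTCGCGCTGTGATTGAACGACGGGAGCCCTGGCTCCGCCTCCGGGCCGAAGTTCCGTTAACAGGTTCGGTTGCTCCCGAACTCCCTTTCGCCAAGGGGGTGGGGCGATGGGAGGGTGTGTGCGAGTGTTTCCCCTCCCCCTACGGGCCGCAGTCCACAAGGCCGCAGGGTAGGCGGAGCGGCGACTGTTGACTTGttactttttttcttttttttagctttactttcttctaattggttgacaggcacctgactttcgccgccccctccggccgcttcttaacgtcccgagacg
Setd3: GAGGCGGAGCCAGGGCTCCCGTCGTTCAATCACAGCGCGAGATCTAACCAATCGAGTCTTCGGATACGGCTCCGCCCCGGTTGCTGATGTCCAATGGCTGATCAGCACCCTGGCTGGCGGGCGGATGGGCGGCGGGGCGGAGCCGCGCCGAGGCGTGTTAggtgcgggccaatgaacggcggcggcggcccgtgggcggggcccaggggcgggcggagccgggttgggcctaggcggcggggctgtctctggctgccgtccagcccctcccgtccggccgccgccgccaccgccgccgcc
The window of the second Tmem267 start site (chr13:119488223-119488522, plus strand) has in capitals the bases under a peak in at least 2 libraries, and that of Rcc1l (chr5:134176718-134177017, minus strand) the bases under a peak in both control-GFP 1 and knockout-Acsl4 2.
Tmem267: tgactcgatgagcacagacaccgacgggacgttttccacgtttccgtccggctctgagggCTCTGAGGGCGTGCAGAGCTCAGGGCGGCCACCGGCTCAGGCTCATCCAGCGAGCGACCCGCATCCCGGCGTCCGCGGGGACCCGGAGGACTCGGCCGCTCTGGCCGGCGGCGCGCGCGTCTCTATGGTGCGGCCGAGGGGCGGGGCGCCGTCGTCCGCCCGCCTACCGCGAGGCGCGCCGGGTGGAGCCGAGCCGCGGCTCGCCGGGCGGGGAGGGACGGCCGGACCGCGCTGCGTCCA
Rcc1l: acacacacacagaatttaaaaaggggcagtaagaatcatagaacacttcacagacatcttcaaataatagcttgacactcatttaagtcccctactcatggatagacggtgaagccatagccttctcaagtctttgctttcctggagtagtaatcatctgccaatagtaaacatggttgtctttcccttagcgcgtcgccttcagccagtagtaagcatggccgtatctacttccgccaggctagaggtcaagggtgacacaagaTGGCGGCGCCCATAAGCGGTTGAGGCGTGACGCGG
In Ccnk 201 bases of the window were covered at that level, in Setd3 160 and in Tmem267 240. In Rcc1l the covered stretch was the last 35 bases, past the start site, and the bases before the start site were bare. The windows of Lars2 and Sp140 and that of the first Tmem267 start site had no base under a peak in any library.

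The Ccnk and Setd3 windows were rich in CpG. GC content was 74.7% in the Setd3 window shown and 58.7% in that of Ccnk, against a median of 52.7% over 32851 promoters. The ratio of observed to expected CpG was 0.963 and 1.01, higher than in 91.9% and 94.4% of all promoters. The GC box GGGCGG, counted on both strands with overlaps allowed, occurred 7 times in the Setd3 window and 1 time in that of Ccnk, and 35.7% of all promoters hold it. The CCAAT box occurred 3 times and 1 time, and 37.4% of promoters hold it. The Tmem267 window shown had a GC content of 76.0%, an observed to expected CpG ratio of 1.16 (higher than 99.1% of promoters) and 4 GC boxes. That of Lars2 had 58.3%, 0.708 and 2 GC boxes, and that of Rcc1l 47.7%, 0.705 and no GC box. Sp140 had the lowest CpG ratio of the 6, at 0.345, with a GC content of 52.0%. Searches of both strands for the TATA box TATAAA (in 13.6% of all promoters), the ETS motif CCGGAAG (8.86%) and the cyclic AMP element TGACGTCA (1.79%) found no match in these windows. The NRF1 motif (0.971%) and a doubled telomere repeat (0.0122%) were not in their letters either.

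**Figure D1:**
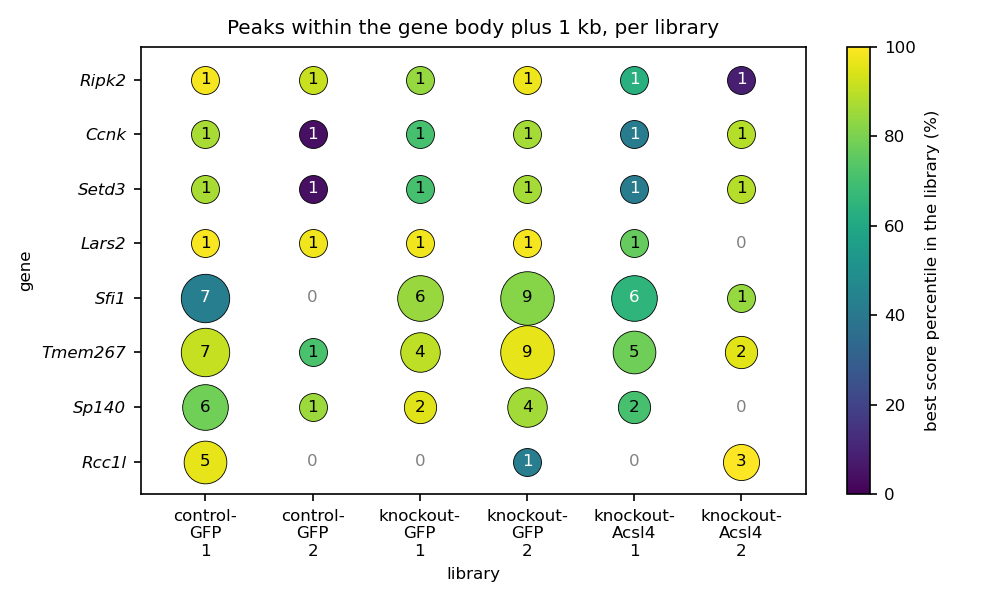
Number of peaks (figure in each circle) within the gene body plus 1 kb, for each gene (rows) in each library (columns); colour gives the best score percentile in the library. Sfi1, Tmem267, Sp140 and Rcc1l hold several peaks in some libraries, up to 9 in knockout-GFP 2, and the other genes at most 1.

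Ripk2 encodes the kinase that passes signals from the bacterial sensors Nod1 and Nod2 to NF-κB. It spans 16122732 to 16163678 on chromosome 4, and its only region lay over the high-coordinate end in all 6 libraries. The peak ran from 16163379 to 16164266 (888 bp, score 44.9) in control-GFP 1, and from 16163599 to 16163795 (197 bp, 6.61) in control-GFP 2. In knockout-GFP 1 it was 493 bp wide with a score of 7.94, and in knockout-GFP 2 614 bp with 33.2. In knockout-Acsl4 1 it was 485 bp wide with 5.75, and in knockout-Acsl4 2 202 bp with 1.38. The widest calls came with the highest scores, and control-GFP held both the widest and the narrowest call, so the groups overlapped. All 15 pairs of libraries overlapped, and the calls reached from at most 299 bp inside the gene to at most 588 bp beyond it. The long noncoding RNA gene A530072M11Rik begins 432 bp beyond the same end. The region covers the Ripk2 end in every library, and in control-GFP 1 alone it also reaches into A530072M11Rik. Its score percentiles were 98.5 and 91.5 in control-GFP, 84.2 and 97.5 in knockout-GFP, and 63.4 and 8.24 in knockout-Acsl4, libraries 1 and 2 in each case. In knockout-Acsl4 2 this was rank 5383 of 5874 peaks, close to the bottom of the list.

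Ccnk encodes the cyclin that drives the elongation kinases Cdk12 and Cdk13, and Setd3 encodes the methyltransferase of an actin histidine. Ccnk (chromosome 12, 108179308 to 108203359) and Setd3 (108106431 to 108179345) overlap by their starts and shared 1 region from 108179299 to 108179783. The peak was 481 bp wide with a score of 14.0 in control-GFP 1 and 201 bp with 1.53 in control-GFP 2. It was 267 bp wide with 5.88 in knockout-GFP 1 and 485 bp with 12.9 in knockout-GFP 2. The values were 86 bp and 3.31 in knockout-Acsl4 1, and 294 bp and 3.46 in knockout-Acsl4 2. The call was widest in control-GFP 1 and knockout-GFP 2, which also held the 2 widest calls at Ripk2. The call was in the better 50% of its list in 4 libraries and among the best 525 peaks in knockout-Acsl4 1 alone, the list that has no more than that. The Ccnk start site, 108179738, lay inside the peak in 3 libraries and within 210 bp of it in the others. No call covered either Setd3 start site, 108179241 or 108179284. The calls lay 15 to 373 bp from the nearer of these. Percentiles were 86.9 and 4.18 in control-GFP, 70.6 and 86.7 in knockout-GFP, and 41.5 and 89.0 in knockout-Acsl4. The lowest value, in control-GFP 2, was rank 1561 of 1628. Not every pair of libraries overlapped here: 14 of the 15 pairs did, since the narrow calls of control-GFP 2 and knockout-Acsl4 1 lay apart.

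The score profile sets these regions apart from the other regions called in every library, as a description, since recurrence was part of the rule. Of 13633 merged regions in the series, 50 were called in all 6 libraries. The regions of Ripk2 and of Ccnk with Setd3 were the only 2 of the 50 within 1000 bp of an end of a protein-coding gene. For each region the best percentile was taken in each library, and the lowest of the 6 values was compared. It was 8.24 for Ripk2 and 4.18 for Ccnk with Setd3, whereas over the other 48 regions it ran from 58.1 to 100 with a median of 91.6. The regions at the head of the lists, chiefly the chromosome 2 region from 98666248 to 98667327 with scores of 2869 to 10835, are thus ranked high in every library, while the Ripk2 and Ccnk regions fell near the bottom of 1 list each. Without knockout-Acsl4 2 the Ripk2 percentiles ran from 63.4 to 98.5. Over the same libraries the lowest values of the other 48 regions began at 58.1, and the next was 66.5, so Ripk2 lay near their low end. The next lowest value for Ccnk with Setd3 was 41.5, in knockout-Acsl4 1. By position, Ripk2, Ccnk and Setd3 are described as genes with a peak at a gene end, and the working name repeat-like is not used for them. Whether the sequence under these peaks has extra copies was not tested.

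**Figure D2:**
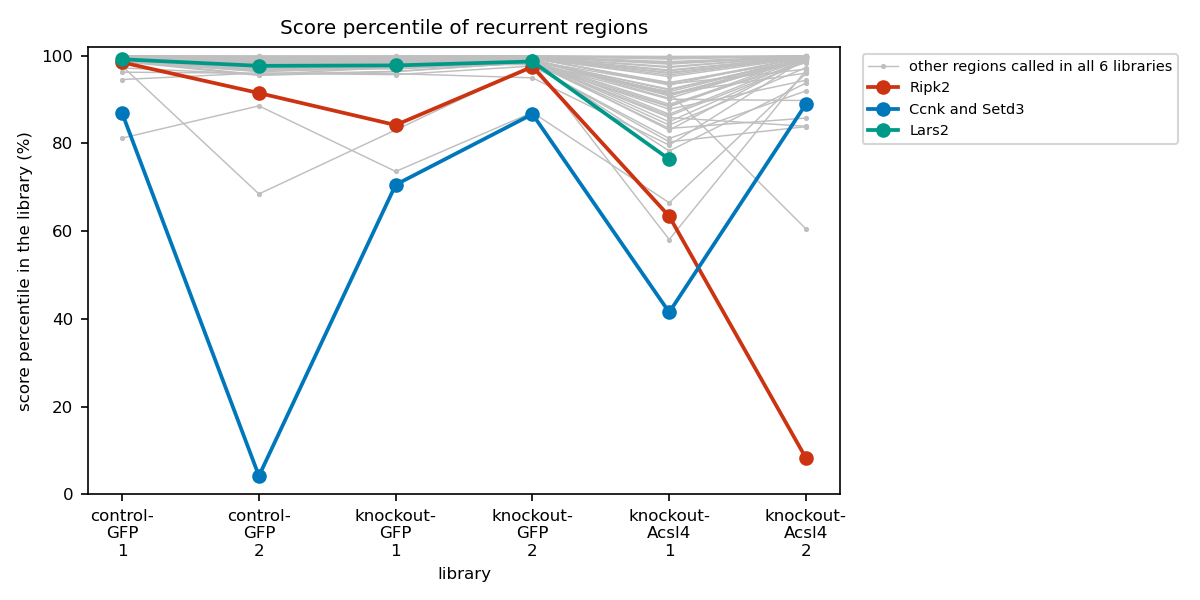
Score percentile within each library (y axis, %) for the regions of Ripk2, of Ccnk with Setd3 and of Lars2, over the other 48 regions called in all 6 libraries (grey). The Ripk2 line falls to 8.24 in knockout-Acsl4 2 and the Ccnk line to 4.18 in control-GFP 2, below every grey line, while the Lars2 line stays between 76.4 and 99.2 in its 5 libraries.

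Lars2, the mitochondrial leucyl-tRNA synthetase that charges leucine onto the tRNAs of the mitochondrial ribosome, carried its peak far from its annotated start site. The gene runs from 123366927 to 123462675 on chromosome 9 on the plus strand, with its start site at 123366927. The peak lay 94951 to 95000 bp past that start site, and 507 to 589 bp short of the gene's far end. It spanned 123461878 to 123462140 in control-GFP 1 (score 84.8) and 123461927 to 123462145 in control-GFP 2 (42.4). It spanned 123461895 to 123462168 in knockout-GFP 1 (72.4) and 123461902 to 123462140 in knockout-GFP 2 (90.7). In knockout-Acsl4 1 it spanned 123461890 to 123462086 (13.5), and knockout-Acsl4 2 had no peak in the gene. These 5 calls were nearly the same block, 197 to 274 bp wide. The widest was 1.39 times the narrowest, against 4.51 times at Ripk2 and 5.64 times at Ccnk. The percentiles were 99.2 and 97.7 in control-GFP, 97.8 and 98.7 in knockout-GFP and 76.4 in knockout-Acsl4 1, and in control-GFP 2 the peak was rank 39 of 1628. The block varied little in its borders, with starts within 49 bp and ends within 82 bp, and it lies near the 3′ end of the gene. In each of the 5 libraries it was wider than the median peak of that list (125 to 240 bp). Whether its sequence is repeated was not tested.

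The genes whose percentiles were most like those of Lars2 over the same 5 libraries were E030030I06Rik (mean absolute difference 2.78 percentile points), the laminin gene Lama1 (3.04) and Apool (3.32), out of 38 genes with that set of libraries. For Ripk2 the nearest of 21 genes was Aida, at 16.9 points, so no gene matched its profile closely. The nearest to Ccnk and Setd3, besides each other, was Phtf2, followed by Zbtb20 at 20.5 points. For Sfi1 it was Pwwp2a at 16.1 points, for Sp140 Garem1 at 6.91, for Rcc1l Phc2 at 14.6 and for Tmem267 Sp110 at 8.67. Of the 22 genes with a peak in all 6 libraries, the highest mean of the best percentiles was that of the cell adhesion genes Chl1 and Mdga2 (98.8 each), followed by Cdk8 (97.5), Cldn34d (97.3) and Cmss1, which is tied with the overlapping Filip1l (96.4 each). The same mean was 87.1 for Tmem267, 73.9 for Ripk2 and 63.1 for Ccnk and Setd3.

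Sfi1, a centrosomal protein that binds centrin along an array of internal repeats, spans 3131850 to 3203347 on chromosome 11. It held 29 peaks, all inside the gene, in 19 separate regions spread over nearly its whole length. The counts were 7 and 0 in control-GFP 1 and 2, 6 and 9 in knockout-GFP, and 6 and 1 in knockout-Acsl4. Control-GFP 2 had no peak there and knockout-Acsl4 2 had 1, so the counts of control-GFP and of knockout-Acsl4 each ran from low to high. Scores were modest, with percentiles of 16.0 to 84.7 and a median of 37.9. Of the 19 regions, 13 were called in a single library, and the most recurrent was called in 4. That region spanned 3159706 to 3159954 in control-GFP 1, 3159699 to 3159955 in knockout-GFP 1, 3159655 to 3159972 in knockout-GFP 2 and 3159709 to 3159949 in knockout-Acsl4 1. The starts of these 4 calls lay within 54 bp and the ends within 23 bp of each other. Not every shared region was as tight: in another, called in 3 libraries, the starts spread over 246 bp and the ends over 189 bp. At Ripk2, over 6 libraries rather than 4, the starts spread over 254 bp and the ends over 471 bp.

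No strand or start site was used for Sfi1. At its low-coordinate end 2 libraries had a peak within 1000 bp (3132012 to 3132137 in knockout-GFP 2 and 3132025 to 3132201 in knockout-Acsl4 1), and none lay within 3590 bp of the other end. Pseudogenes, copies of other genes, are annotated in and beside it. The transcribed pseudogene Pisd-ps1 overlaps its low end, and the pseudogenes Gm11400 and Fau-ps2 lie inside it. Fau-ps2 (3196390 to 3196727), a copy of the ribosomal fusion gene Fau, was overlapped by 2 peaks in 2 libraries, while Gm11400 and Pisd-ps1 were overlapped by none. A region called in all 6 libraries lay 29.3 kb before the gene, from 3101085 to 3102532. For the other members the nearest such region away from gene ends was 794 to 97654 kb off.

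Tmem267, a gene for a little-studied membrane protein, had a group of peaks at its start and another inside the gene toward its far end. Most regions of the latter group ended 8116 to 13377 bp short of that end. Its last regions, called in knockout-GFP 2 alone, lay within 1000 bp of the end. The gene runs from 119488086 to 119610459 on chromosome 13 on the plus strand and held 28 peaks in 10 regions. At the start, 2 regions between 119488283 and 119489296 were called with 2 and 0 peaks in control-GFP 1 and 2, 1 and 2 in knockout-GFP, and 2 and 0 in knockout-Acsl4. The first of them covered the second annotated start site, 119488473, in control-GFP 1, knockout-GFP 2 and knockout-Acsl4 1. Percentiles at the start ran from 8.48 to 76.2. The 3 calls of the first region lie on the CpG-rich window shown above, and the 4 calls of the second lie outside it, 209 to 734 bp from the start site.

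Starting 108358 bp past the second start site, 8 regions between 119596831 and 119610735 held the other 21 peaks, with 5 and 1 in control-GFP, 3 and 7 in knockout-GFP, and 3 and 2 in knockout-Acsl4. Their percentiles ran from 22.1 to 96.4. The highest-ranked lay at 119601885 to 119602343, with scores of 17.3 in control-GFP 1, 9.52 in knockout-GFP 1, 22.1 in knockout-GFP 2 and 15.1 in knockout-Acsl4 1. The most recurrent, at 119600115 to 119600552, was called in 5 libraries, all but knockout-GFP 1, with percentiles of 62.5 to 91.7. Control-GFP 1 ran from 119600115 to 119600404 and held the calls of both knockout-Acsl4 libraries inside it, knockout-GFP 2 ended 14 bp past it, and control-GFP 2 was shifted, from 119600300 to 119600552. No start site of Tmem267 lies near them in the promoter table, and no other annotated gene overlaps them.

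Sp140 belongs to the SP100 family of chromatin readers that are expressed mainly in immune cells, and sits in a cluster of its relatives on chromosome 1. It spans 85587491 to 85645040 and held 15 peaks in 5 regions, 6 and 1 in control-GFP, 2 and 4 in knockout-GFP, and 2 and 0 in knockout-Acsl4. Of the 15, 11 fell into a stretch of 2289 bp from 85591061 to 85593349, which also lies inside the neighbouring family gene Sp110. That stretch began 3570 bp inside the low-coordinate end of Sp140 and held peaks in 5 libraries. It was at least 7354 bp before the annotated Sp140 start site at 85600703, which itself lies inside the gene. The broadest call was 1269 bp wide in knockout-GFP 1 (score 14.2, rank 112 of 2206). The boundaries did not repeat between libraries: calls overlapped, split and merged, with a median of 475 bp for the larger of the start and end offsets of 2 overlapping peaks. Farther along the gene, control-GFP 1 had 3 peaks and knockout-GFP 2 had 1.

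The Sp140 promoter window is itself a copied sequence. A run of 50 bases, the read length of this study, was shared with the promoter of another gene elsewhere in the genome by 2575 of 32851 promoters (7.84%). Of the 6 members with a promoter sequence, Sp140 was the only gene that did so, in 172 runs, with A530032D15Rik and C130026I21Rik, which lie in the same cluster on the opposite strand. The windows of Sp140 (chr1:85600453-85600752, plus strand) and A530032D15Rik (chr1:85109804-85110103, minus strand) are set out with capitals for bases inside a shared run of at least 50.
Sp140: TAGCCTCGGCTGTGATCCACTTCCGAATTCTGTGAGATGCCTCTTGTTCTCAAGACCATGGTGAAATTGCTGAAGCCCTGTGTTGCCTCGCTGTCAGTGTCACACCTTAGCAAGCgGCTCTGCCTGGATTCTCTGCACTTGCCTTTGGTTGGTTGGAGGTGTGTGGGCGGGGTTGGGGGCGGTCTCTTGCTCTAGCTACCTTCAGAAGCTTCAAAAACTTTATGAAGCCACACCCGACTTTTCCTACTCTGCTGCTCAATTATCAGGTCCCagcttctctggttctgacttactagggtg
A530032D15Rik: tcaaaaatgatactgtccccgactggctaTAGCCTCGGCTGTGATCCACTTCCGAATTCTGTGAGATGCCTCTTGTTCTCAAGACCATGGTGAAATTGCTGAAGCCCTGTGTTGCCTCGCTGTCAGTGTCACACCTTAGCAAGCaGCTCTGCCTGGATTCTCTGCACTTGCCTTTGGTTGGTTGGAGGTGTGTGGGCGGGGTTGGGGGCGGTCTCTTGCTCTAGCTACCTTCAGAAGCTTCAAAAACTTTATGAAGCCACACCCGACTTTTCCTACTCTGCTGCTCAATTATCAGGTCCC
The capitals cover 270 bases in each, and the longest unbroken shared run was 155 bases. C130026I21Rik shared 254 bases with Sp140, and its longest run was 146. A read of 50 bases from such a run matches more than 1 place. The window of a Sp110 start site (85603891) shared runs with those of 20 other genes, and that of Sp100 with 1. No peak lay on this window in any library, so the shared letters describe the cluster, not the peaks. C130026I21Rik and Gm38510, which overlaps it, also held rows of internal peaks, with 4 and 6 in control-GFP 1, 2 and 2 in knockout-GFP 1, 1 and 3 in knockout-GFP 2, and 2 and 3 in knockout-Acsl4 1. A530032D15Rik had 1 peak in each knockout-GFP library, and Sp100 had none in any library.

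Rcc1l, also called Wbscr16, encodes a mitochondrial protein with RCC1-type repeats that takes part in ribosome assembly there. The gene spans 134148058 to 134179124 on chromosome 5 on the minus strand, with its start site at 134176767. Control-GFP 1 held 5 peaks, knockout-Acsl4 2 held 3 and knockout-GFP 2 held 1, and the other 3 libraries had none, so it does not carry peaks in most libraries. Without control-GFP 1 it had at most 3 internal peaks and no longer met the rule. All 3 peaks of knockout-Acsl4 2 lay where control-GFP 1 also had one. The first spanned 134176406 to 134176753 in control-GFP 1 and 134176406 to 134176752 in knockout-Acsl4 2, ending 14 and 15 bp downstream of the start site. The second spanned 134163633 to 134163806 and 134163633 to 134163807. The third spanned 134155746 to 134155907 and 134155740 to 134155914. The starts thus differed by 0, 0 and 6 bp and the ends by 1, 1 and 7 bp.

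Both libraries ranked these peaks high, apart from the third in control-GFP 1. The percentiles were 96.4, 90.5 and 37.1 in control-GFP 1 and 99.7, 99.7 and 99.4 in knockout-Acsl4 2, where they were ranks 16, 19 and 38 of 5874. The other 2 peaks of control-GFP 1, at 134169218 to 134169343 and 134171847 to 134171972, were each 126 bp wide. The peak of knockout-GFP 2, at 134152383 to 134152515, overlapped none of them and had a percentile of 42.1. Exon positions were not used here, so whether the blocks match exons was not tested.

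**Figure D3:**
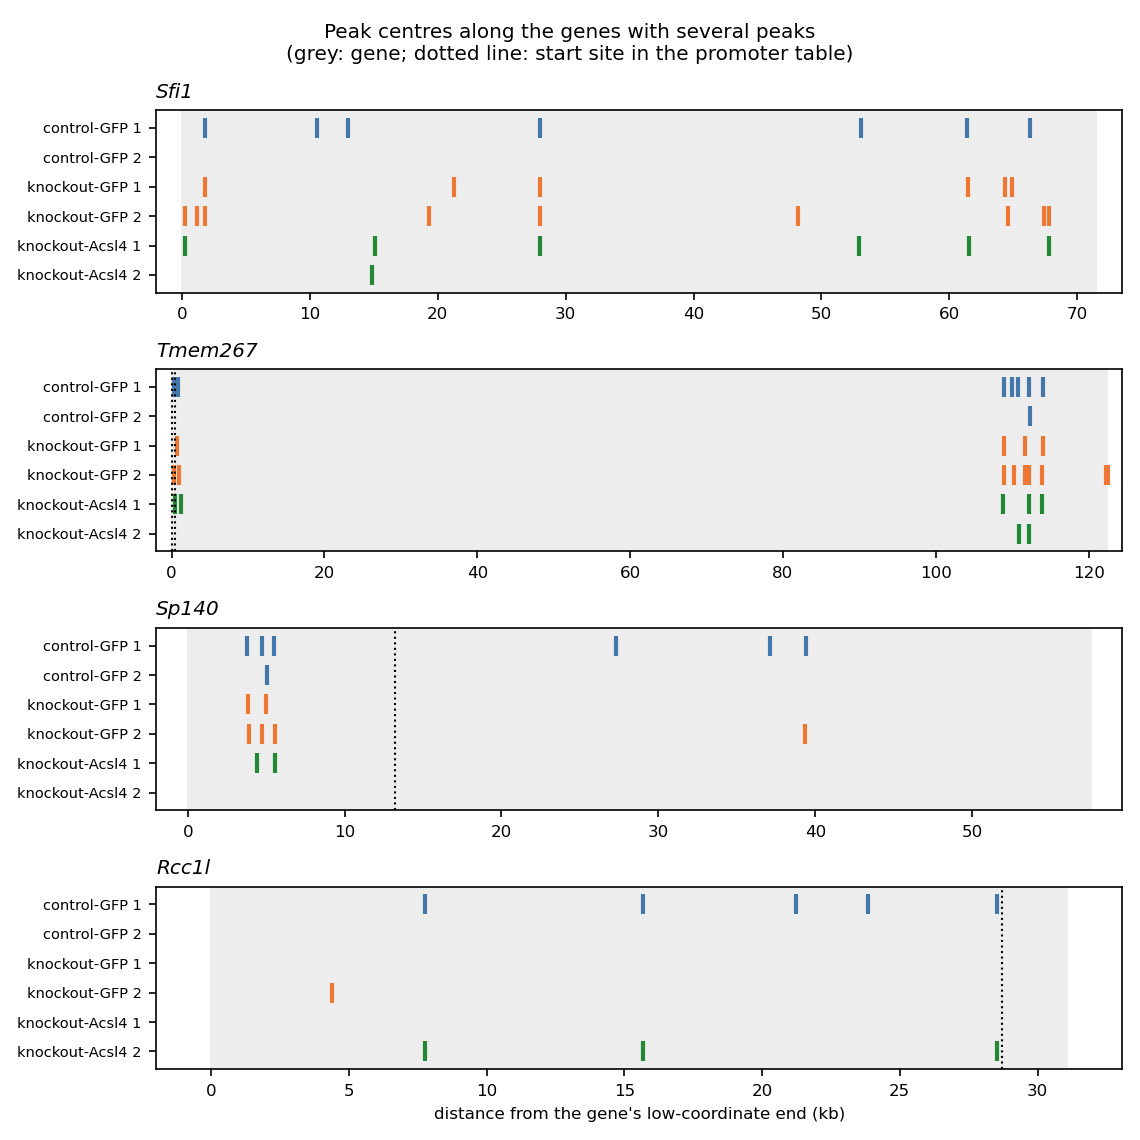
Peak centres (ticks) in each library along Sfi1, Tmem267, Sp140 and Rcc1l, as distance in kb from the low-coordinate end of the gene; grey marks the gene and dotted lines the start sites in the promoter table, of which Sfi1 has none. Sfi1 peaks are scattered over 19 regions, and those of Tmem267 sit at its start and inside the gene toward its far end. Of the 15 Sp140 peaks, 11 lie in 2289 bp before the dotted line. The 3 Rcc1l peaks of knockout-Acsl4 2 fall where 3 of the 5 of control-GFP 1 lie.

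The agreement of boundaries between libraries can be described only where peaks of 2 libraries overlap. Regions called in a single library, 13 of 19 at Sfi1 and 3 of 6 at Rcc1l, are left out of it. Wide peaks leave room for larger offsets, so it is no measure of shape alone. For each pair of overlapping peaks from 2 libraries, the larger of the start and end offsets was taken. Over all 8220 such pairs in the series its median was 97.0 bp, and 5.94% of pairs had both boundaries within 10 bp. The median was 219 bp at Ripk2 (15 pairs) and 150 bp at Ccnk and Setd3 (14 pairs), where broad calls met narrow ones. It was 118 bp at Tmem267 (33 pairs), 54.0 bp at Sfi1 (15 pairs) and 40.5 bp at Lars2 (10 pairs). No pair came within 10 bp at Ripk2, Lars2 or Sp140, 1 at Ccnk and Setd3, and 3 each at Sfi1 and Tmem267. At Rcc1l it was 1.00 bp, and all 3 pairs came within 10 bp. Pairs at a locus share libraries and are no replicates. Across all protein-coding genes, 2 held at least 2 such close pairs from the same 2 libraries: Rcc1l, with 3 between control-GFP 1 and knockout-Acsl4 2, and Acsl4, with 5 between control-GFP 1 and knockout-GFP 1. Acsl4 had peaks in those 2 libraries alone, and none in either knockout-Acsl4 library. The limit of 10 bp was chosen after the values had been seen.

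**Figure D4:**
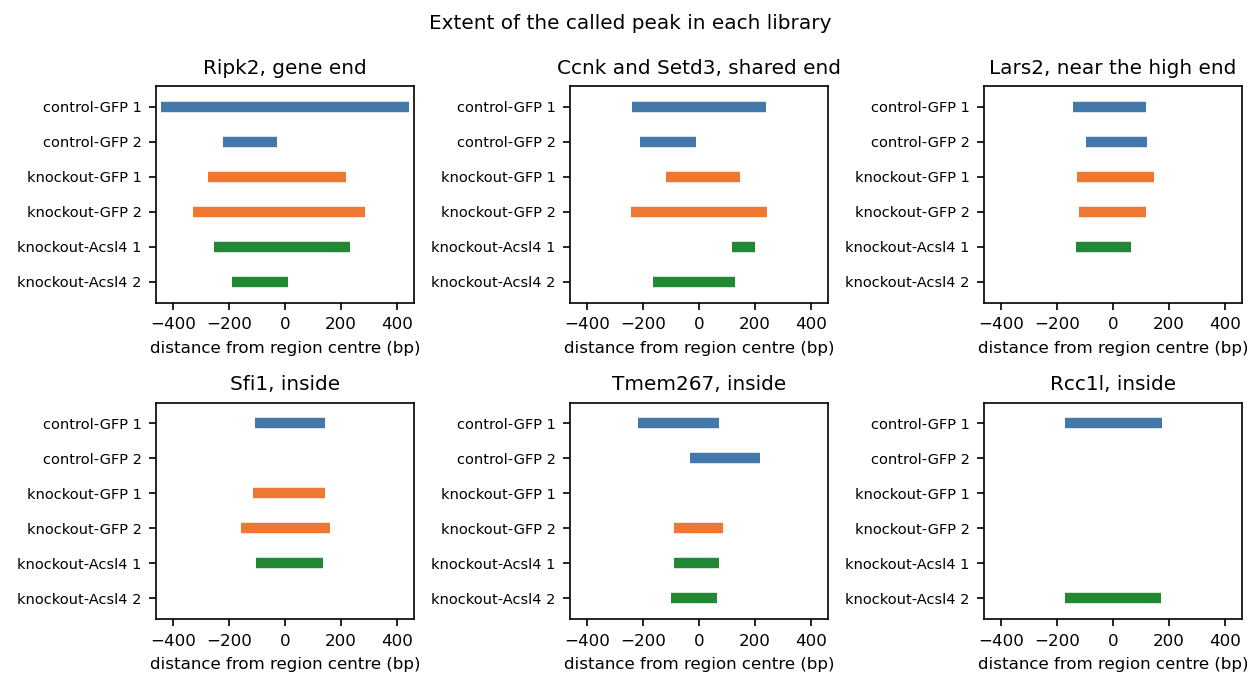
Extent of the called peak in each library (bars, coloured by group) as distance in bp from the centre of the merged region, for 1 region each of Ripk2, Ccnk with Setd3, Lars2, Sfi1, Tmem267 and Rcc1l. The Ripk2 and Ccnk bars range from 86 to 888 bp, the Lars2 bars from 197 to 274 bp, and the 2 Rcc1l bars coincide within 1 bp.

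**Figure D5:**
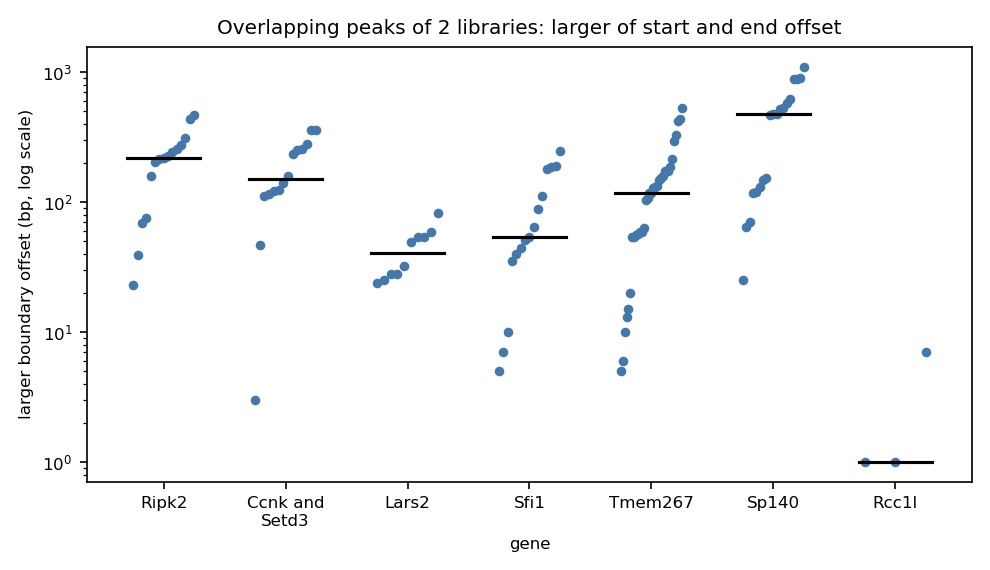
Larger of the start and end offsets (y axis, bp, log scale) for each pair of overlapping peaks from 2 libraries, by gene; black lines are medians. Medians run from 1.00 bp at Rcc1l to 475 bp at Sp140.

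Rows of internal peaks came from 1 library in most genes. Over all genes, 60 (0.274%) had 4 or more peaks inside the gene in at least 1 library, and 52 of the 60 reached this only in knockout-Acsl4 2. Those 52 were long, from 182 to 2390 kb with a median of 1058 kb, and had at most 2.20 peaks per 100 kb. The other 8 genes were Sfi1, Tmem267, Sp140, Rcc1l, Gm38510, C130026I21Rik, Acsl4 and Cntnap2, with a median length of 72.2 kb. In its fullest library, Rcc1l had 16.1 peaks per 100 kb, Sfi1 12.6, Sp140 10.4 and Tmem267 6.54. Sfi1 and Tmem267 reached 4 or more in 4 libraries, control-GFP 1, both knockout-GFP libraries and knockout-Acsl4 1, and Sp140 in 2. Just short of the limit, 70 genes had exactly 3 internal peaks in their fullest library, and 29 just met it with exactly 4. By number of libraries, 113 genes (0.516%) had a peak in 5 or 6 and 22 (0.101%) in all 6, while 452 had a peak in 4. Both conditions together were met by 5 genes (0.0228%), among them Sfi1, Tmem267 and Sp140.

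No member separated the groups. For none of the 8 did 2 libraries of the same kind both carry a peak while both of another kind lacked one, in any of the 6 directions. Over all genes, 1.17% had peaks in both knockout-GFP libraries and neither control-GFP library, 0.279% the reverse, and 6.01% in both knockout-GFP and neither knockout-Acsl4 library, against 0.105% the reverse. For knockout-Acsl4 against control-GFP the shares were 0.101% and 1.58%. A gene with peaks in 5 or 6 libraries cannot have these patterns, so for 7 of the 8 this follows from how they were chosen. No test was made, and with 2 libraries a group an exact two-sided permutation test could not give a p below 0.333. Member peaks numbered 28 and 5 in control-GFP, 15 and 26 in knockout-GFP, and 16 and 8 in knockout-Acsl4. They were 0.630% (95% exact interval 0.419 to 0.910) and 0.307% (0.0998 to 0.715) of the control-GFP lists, 0.680% (0.381 to 1.12) and 0.611% (0.399 to 0.894) of the knockout-GFP lists, and 3.05% (1.75 to 4.90) and 0.136% (0.0588 to 0.268) of the knockout-Acsl4 lists. The Clopper-Pearson intervals cover counting error only, and that only if peaks were independent. Member peaks cluster at 7 loci that were chosen from these same lists. The intervals therefore cannot be used to compare libraries. The highest and the lowest share both belonged to knockout-Acsl4, in the shortest and the longest list, and the share did not follow list length over the other 4. With every list reduced to its best 525 peaks, 42 member peaks remained and 4 of the 8 genes still met the rule, namely Ripk2 and Lars2 in 5 libraries, Tmem267 in 6, and Sfi1 with 6 internal peaks in 1 library but peaks in only 2. Ccnk and Setd3 then had a peak in 1 library, Sp140 in 3 and Rcc1l in 2.

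Neighbours and relatives of the 8 genes held some recurrent genes too. A peak in 5 or 6 libraries was found for 9.38% of the flanking genes and 4.11% of the relatives and partners, against 0.516% of all protein-coding genes. Both shares count Sp110, which holds 11 peaks of the member Sp140, in 5 libraries. They thus partly repeat peaks that chose a member. A peak in at least 1 library was found for 34.1% of all protein-coding genes, with a median of 0 libraries per gene. Of 32 flanking genes, 17 had a peak in some library (53.1%), with a median of 1.00 library, and 3 had one in 5 or 6: Sp110, the cholesterol synthesis enzyme Hmgcs1 near Tmem267, and Gtf2ird1 near Rcc1l. None of the 32 had 4 or more internal peaks. At Ripk2, the neighbours Osgin2 and Nbn had peaks in 3 and 2 libraries and Decr1 in none. Of 73 relatives and partners, 49 had a peak in some library (67.1%), with a median of 1.00, and 3 in 5 or 6: the Mediator kinase Cdk8, the centrosomal Cdk5rap2 and Sp110. Among 14 genes of NOD signalling, the pathway of Ripk2, 6 had any peak, and the most recurrent was Birc2, in 4 libraries. Of 16 other mitochondrial tRNA synthetases 11 had a peak and none in more than 4 libraries. Cdk13, a partner kinase of Ccnk, had a peak in 4 libraries. Of 17 genes at multicopy or pseudoautosomal loci, 6 had a peak (35.3%), with Sp110 in 6 libraries, Hjurp in 5 and Asmt in 4, and the other 11 had none. The share with a peak in 5 or 6 libraries was 2 of 17 (11.8%), again counting Sp110, against 0.516% of all protein-coding genes. Sp110 belongs to all 3 lists.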

How the data were processed

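ATAC-seq peak lists of 6 mouse islet libraries, 2 in each of 3 groups, were used as deposited. MACS2 2.1.1, BWA 0.7.10, Trimmomatic, SAMtools and FastQC appear, without roles or settings, per the submitters' processing notes. The value deposited with each peak was read as the −log10 of a q-value, because the smallest value of every list lies at or above 1.30; no header states this. Builds hg38 and GRCh38 are named in those notes, but chromosomes 1 to 19, X and Y and the RefSeq table were treated as mouse GRCm38, and coordinates are 1-based. Read depth is unknown, and list length is given in its place.

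Peaks overlapping a gene body plus 1000 bp by at least 1 bp were assigned to the gene, and peaks of all libraries overlapping by 1 bp were merged into regions. Named genes are the 8 members, genes of the lists with a peak in 4 or more libraries or given as examples, up to 3 genes per member with the same set of libraries and the smallest mean difference in best percentile, and further genes chosen after their values were seen (A530032D15Rik, C130026I21Rik, Gm38510, Acsl4, Cntnap2, Chga, Pecam1 and Itgam). The 5 genes with the highest mean best percentile among those with a peak in 6 libraries are named too, with Filip1l, which tied. The members and lists were chosen with earlier results of these data known, and since peaks chose the members nothing was tested. Of the listed genes, 3 at multicopy or pseudoautosomal loci were not matched. Overlap and merging were tested on simulated peaks. Python 3.11.15, pandas 2.3.3, NumPy 2.4.6, SciPy 1.17.1 and matplotlib 3.10.9 were used. Alternatives were other gene windows, a 50% overlap, the better 50% of each list, equal list lengths and leaving out each library.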

Additional observations from a re-analysis of the deposited data

How the results depend on the processing

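Of 46 recomputed values, 39 were within 1.5 times the reported one. The 98 member peaks became 64 with the better 50% of each list and 42 with equal list lengths of 525 peaks. With the gene body alone, 7 of the 8 genes met the rule. Setd3 did not, since peaks touched its body in 3 libraries only. At equal lengths 4 of the 8 genes met the rule (not Ccnk, Setd3, Sp140 and Rcc1l), 14 of the 27 distinct member peaks at a gene end were left, and 2 of the 5 regions called in 5 or 6 libraries. Leaving out each library in turn gave 70 to 93 member peaks and 19 to 25 peaks at gene ends. The limit on libraries was then lowered, for genes and regions, to all or all but 1 of the remaining libraries. Under it 7 to 8 genes met the rule and 5 to 9 regions were recurrent. Genes and regions called in 5 or 6 libraries cannot fail this limit, so these counts were partly fixed in advance. They are among the recomputed values counted above. The 9 regions came without control-GFP 2 and without knockout-Acsl4 2, which held 5 and 8 member peaks. At the lowered limit they include the 4 regions called in exactly 4 of the 6 libraries. No paired analysis was possible because the results come from no test. Lists of unequal length limit what an absent peak shows.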
